A study of Mus musculus with 6 samples.

Results

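The 63 genes described here encode factors that build ribosomes, and subunits of RNA polymerase I. They were chosen by symbol from the 14003 genes of the deposited table: all names beginning Utp, Nop, Nol or Rrp followed by a digit, Polr1a to Polr1h, and a list of further names that includes Ncl, Npm1, Fbl, Dkc1, Pes1 and Bop1. The name pattern used no measured value, but the set was put forward with the difference between the groups known, so its direction is given as a description. The cells were MC3T3-E1, a wild-type preosteoblast line from mouse calvaria, in 3 untreated control libraries and 3 libraries of cells given 200 µM sulfasalazine for 24 h, with no vehicle named for either group. All 6 carry the same batch label. Whether replicates were separate cultures is not said in the labels, and every p-value therefore reflects only library-to-library spread, possibly technical. Sulfasalazine is an anti-inflammatory drug, and the series title concerns TNFα binding to its receptor, NF-kB signalling and fracture healing.

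Ribosomes are assembled in the nucleolus. RNA polymerase I transcribes one long precursor rRNA, which box C/D and box H/ACA small nucleolar ribonucleoproteins modify, and a large particle called the small-subunit processome folds and cleaves. The precursors of the small and large subunits are then matured by separate sets of factors and exported. The transcription factor MYC is known for activating many of these genes in growing cells.

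Recovered reads on genes ranged from 15980935 in control replicate 3 to 21579133 in sulfasalazine replicate 1. Values below are FPKM (fragments scaled for gene length and for the mapped fragments of the library), listed in the order of replicates 1, 2 and 3, and errors after ± are SD over n = 3 libraries. Of 12 osteoblast markers listed, 7 were in the table, and 4 of these had a mean below 1 FPKM, including Col1a1, Bglap and Sp7, while Runx2, Spp1 and Sparc were expressed. The 7 summed to 1549, 2054 and 2142 FPKM in controls and 968, 889 and 1110 FPKM with sulfasalazine, and nearly all of each sum was Spp1, at 1513, 2015 and 2077 FPKM untreated and 932, 851 and 1057 FPKM treated (adjusted p = 0.0013). Runx2 was called lower (-0.36, adjusted p = 0.044) and Sparc was not called. Epithelial markers, 6 of 7 in the table with Krt5 and Krt14 near 0, summed to 1309, 1452 and 1293 FPKM against 1952, 2093 and 1884 FPKM. Krt8 was higher (287 ± 33.4 to 902 ± 58.1 FPKM) and so was Krt18 (708 ± 61.1 to 913 ± 61.4 FPKM, adjusted p = 0.031), whereas Krt19 was lower (349.5 ± 43.2 to 154 ± 42.9 FPKM) and Cdh1 was not called. Libraries labelled as preosteoblasts thus held abundant keratin RNA in both groups, while Col1a1, Bglap and Sp7 were near 0. Genes marking proliferating cells summed to 758, 901 and 936 FPKM in controls and 588, 517 and 969 FPKM with sulfasalazine, so sulfasalazine replicate 3 lay above every control and the other treated libraries below. Of these 15 genes, Mcm2, Mcm3, Mcm5 and Cdk1 were called lower, a share of 26.7% against 29.3% of all tested genes. The part of these markers in the differences described here was not tested.

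Most of these ribosome assembly genes stood lower with sulfasalazine. Of the 63 members, 62 passed the filter of 1 FPKM in at least 3 libraries, and 40 of these fell, 3 rose and 19 did not pass the test (limma, Benjamini-Hochberg adjusted p under 0.05 over all 10338 tested genes). The rises numbered 8 without control replicate 3, where 40.7% of all tested genes were called higher. They numbered 1 without sulfasalazine replicate 1 or 2, where 32.8% and 33.6% of all tested genes were called higher. Over all tested genes the share called lower was 29.3%, the share called higher 37.2% and the share called in either direction 66.5%, and among the members the shares were 64.5% and 4.8%. The median log2 fold change of the tested members was -0.86, against 0.08 over all tested genes. A fold change here is on the log2(FPKM + 1) scale, sulfasalazine over control. A log2 fold change of -1 or below was reached by 29 of the 62, and by 13.9% of all tested genes. The groups did not overlap for 48 of the 62 (71.4% of all tested genes). The summed level of the 63 members was 5860, 6663 and 6258 FPKM in controls and 3332, 3372 and 3312 FPKM with sulfasalazine. As a share of recovered reads this was 0.847%, 0.953% and 0.884% against 0.468%, 0.471% and 0.463%. Fewer cells making these RNAs and less RNA per cell cannot be told apart in such samples.

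**Figure D1:**
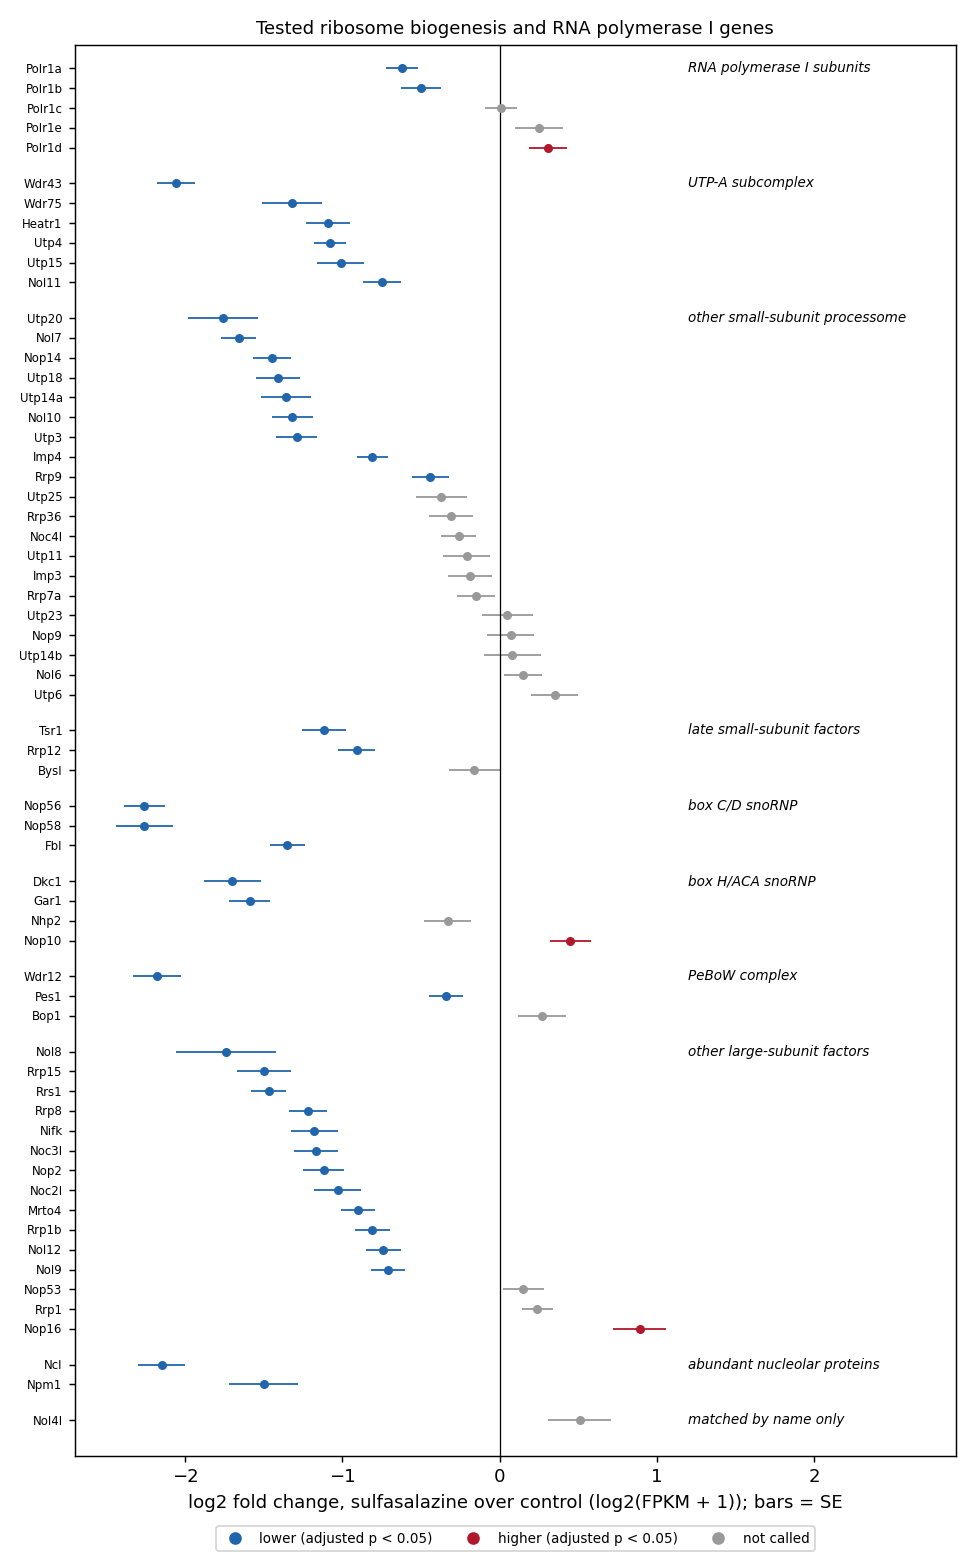
Log2 fold change (sulfasalazine over control, on log2(FPKM + 1)) of the 62 tested members, grouped by role, with bars for the SE. Blue points were called lower (40), red points higher (3) and grey points were not called (19). The lowest values, from -2.26 to -2.06, are those of Nop56, Nop58, Wdr12, Ncl and Wdr43.

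The box C/D particle methylates rRNA at sites chosen by guide snoRNAs. The 3 genes for its core proteins among the members all fell, where 29.3% of all tested genes were called lower. Snu13, a further core protein gene that the name pattern does not match, fell less (a log2 change of -0.36 with SE 0.10, adjusted p = 0.012). Nop56, a scaffold protein of the particle (chromosome 2, 130274430 to 130279313, GRCm38), stood at 619, 734 and 819.6 FPKM untreated and 142, 151 and 154.5 FPKM treated. It fell 4.85-fold in mean level (a log2 change of -2.26 with SE 0.13, adjusted p = 7.3e-06). Every sulfasalazine value lay below every control value by a wide gap. Its partner scaffold Nop58 (chromosome 1, 59684971 to 59719044) stood at 133, 185 and 128 FPKM untreated and 29.1, 25.5 and 35.5 FPKM treated (a log2 change of -2.26 with SE 0.18, adjusted p = 2.3e-05). Fbl, encoding the methyltransferase fibrillarin (chromosome 7, 28169710 to 28179269), stood at 264, 295 and 327.5 FPKM untreated and 117, 120.3 and 108 FPKM treated (a log2 change of -1.35 with SE 0.11, adjusted p = 3.2e-05). The FPKM ratio of Nop56 to Fbl was 2.34, 2.49 and 2.50 in controls and 1.21, 1.26 and 1.43 with sulfasalazine, lower in every treated library. Of the 50-base words in their transcripts, 18.6% for Nop56 and 19.0% for Fbl occur in transcripts of other genes, so part of their reads may be assigned with uncertainty.

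The genes of the box H/ACA particle, which converts uridine to pseudouridine and also belongs to telomerase, split. Dkc1, the pseudouridine synthase dyskerin (chromosome X, 75095854 to 75109777), stood at 49.0, 67.65 and 69.1 FPKM untreated and 16.9, 16.1 and 21.9 FPKM treated (a log2 change of -1.70 with SE 0.18, adjusted p = 8.2e-05). Gar1, a core protein (chromosome 3, 129824912 to 129831396), stood at 104, 126 and 129.9 FPKM untreated and 40.5, 35.3 and 41.9 FPKM treated (a log2 change of -1.59 with SE 0.13, adjusted p = 2.4e-05). Both fell, with no overlap between groups. Nhp2, another core protein, stood at 82.5, 109.6 and 122 FPKM untreated and 80.7, 88.1 and 77.3 FPKM treated and was not called (adjusted p = 0.085), although it passed as lower without control replicate 1 (0.0088) and with median-of-ratios scaling, which rescales each library by its median ratio over genes (0.04). Nop10, the smallest core protein, was higher at 66.0, 68.9 and 68.05 FPKM untreated and 103, 102 and 76.2 FPKM treated (a log2 change of 0.45 with SE 0.13, adjusted p = 0.017). It no longer passed with that scaling (0.1) and without sulfasalazine replicate 1 (0.08) or replicate 2 (0.076). The ratio of Dkc1 to Nop10 was 0.742, 0.982 and 1.02 in controls and 0.163, 0.158 and 0.287 with sulfasalazine.

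The PeBoW complex, named for its subunits Pes1, Bop1 and Wdr12 and needed to process the large-subunit rRNA precursor, split widely. Wdr12 (chromosome 1, 60069785 to 60098645) stood at 40.9, 39.2 and 34.8 FPKM untreated and 6.74, 7.35 and 8.97 FPKM treated, a 4.99-fold fall (a log2 change of -2.18 with SE 0.15, adjusted p = 1.3e-05). Pes1 stood at 139, 145 and 131 FPKM untreated and 114.5, 115 and 98.3 FPKM treated (a log2 change of -0.34 with SE 0.11, adjusted p = 0.021). Pes1 no longer passed after quantile normalization (0.054) or without control replicate 2 (0.069), sulfasalazine replicate 1 (0.05) or sulfasalazine replicate 3 (0.069), and other genes hold 20.4% of its 50-base words. Bop1 stood at 141, 159 and 209 FPKM untreated and 192, 210 and 203 FPKM treated and was not called (adjusted p = 0.15). Without control replicate 3, its highest control, Bop1 was called higher (log2 fold change 0.43, adjusted p = 0.0042). The FPKM ratio of Wdr12 to Bop1 was 0.291, 0.246 and 0.166 in controls and 0.0351, 0.0350 and 0.0442 with sulfasalazine.

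**Figure D2:**
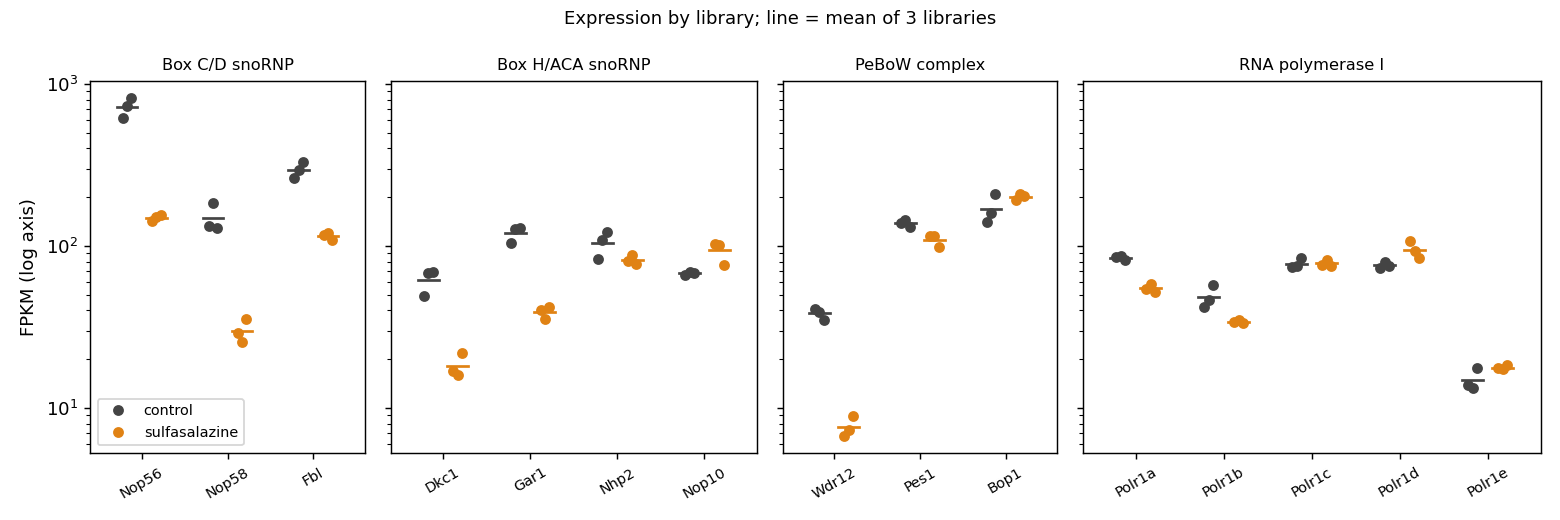
FPKM (log axis) in each library of genes from 4 assemblies, control in grey and sulfasalazine in orange, with a line at the mean of 3 libraries. The box C/D genes sit lower in all 3 treated libraries, whereas the treated means of Nop10, Bop1, Polr1c, Polr1d and Polr1e are at or above the control means.

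Of the 5 RNA polymerase I subunit genes that the pattern matched, 2 fell, 1 rose and 2 were not called. These shares, 40.0% lower and 20.0% higher, stand beside 29.3% and 37.2% of all tested genes. The largest subunit gene, Polr1a (chromosome 6, 71909053 to 71984935), stood at 85.5, 86.85 and 81.5 FPKM untreated and 54.4, 58.45 and 52.0 FPKM treated (a log2 change of -0.62 with SE 0.10, adjusted p = 0.00079). The second-largest, Polr1b (chromosome 2, 129100995 to 129126594), stood at 41.9, 46.65 and 57.4 FPKM untreated and 33.8, 34.7 and 33.2 FPKM treated (a log2 change of -0.50 with SE 0.13, adjusted p = 0.011). These form the catalytic centre, and in both the groups did not overlap. Polr1c, shared with RNA polymerase III, stood at 73.7, 74.8 and 84.0 FPKM untreated and 76.8, 82.1 and 75.5 FPKM treated, with nearly coinciding means (log2 change 0.01, SE 0.10, adjusted p = 0.91), and its sign turned under median-of-ratios scaling (-0.11). Polr1d, also shared with RNA polymerase III, stood at 72.6, 80.0 and 75.7 FPKM untreated and 107, 92.5 and 84.0 FPKM treated (a log2 change of 0.31 with SE 0.12, adjusted p = 0.048). It was barely past the threshold, and did not pass under many other settings, among them median-of-ratios scaling (0.27), voom on recovered reads (0.056) and leaving out 1 library, either control replicate 1 or 2 or sulfasalazine replicate 1 or 2 (0.069 to 0.21). Polr1e, encoding a subunit of the initiation and elongation subcomplex, stood at 13.9, 13.3 and 17.7 FPKM untreated and 17.6, 17.4 and 18.4 FPKM treated and was not called (adjusted p = 0.17), but was called higher without control replicate 3 (0.016).

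Other polymerase I subunits are in the table under older symbols that the name pattern does not match. Twistnb stood at 38.5, 43.8 and 35.8 FPKM untreated and 19.3, 15.5 and 19.7 FPKM treated (a log2 change of -1.08 with SE 0.14, adjusted p = 0.00029), and Znrd1 at 45.3, 39.6 and 33.8 FPKM untreated and 20.45, 23.2 and 22.8 FPKM treated (a log2 change of -0.80 with SE 0.14, adjusted p = 0.0012). Both fell without overlap. Cd3eap, the partner of Polr1e, stood at 16.2, 22.9 and 29.5 FPKM untreated and 31.3, 32.0 and 24.9 FPKM treated and was not called (adjusted p = 0.15), but was called higher without control replicate 3 (0.018). Of 5 small subunits shared by all nuclear RNA polymerases, Polr2h fell (a log2 change of -1.06 with SE 0.11, adjusted p = 9.3e-05), Polr2l rose (a log2 change of 1.03 with SE 0.16, adjusted p = 0.00063) and Polr2e, Polr2f and Polr2k were not called. For comparison, 3 of 8 other RNA polymerase II genes were called lower and 2 higher (median 0.08). Among 11 RNA polymerase III genes, 4 were called lower and 5 higher (median 0.37). These counts stand beside 29.3% lower and 37.2% higher among all tested genes.

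Of 10 listed factors of polymerase I transcription, 5 fell, 1 rose and 4 were not called, where 29.3% of all tested genes were called lower and 37.2% higher. Taf1d, a subunit of the promoter selectivity factor SL1, stood at 144, 194 and 204 FPKM untreated and 20.9, 22.7 and 28.6 FPKM treated (a log2 change of -2.85 with SE 0.17, adjusted p = 8.9e-06). This was a 7.51-fold fall, and other genes overlap 13.6% of its exonic bases. Taf1a, another SL1 subunit, stood at 14.15, 15.6 and 13.5 FPKM untreated and 3.665, 2.60 and 3.40 FPKM treated (a log2 change of -1.88 with SE 0.16, adjusted p = 3.4e-05). Ttf1, which ends polymerase I transcription, stood at 22.1, 16.25 and 13.2 FPKM untreated and 9.45, 8.145 and 9.17 FPKM treated (a log2 change of -0.85 with SE 0.20, adjusted p = 0.0055). Taf1b fell as well (-0.79, adjusted p = 0.0029), whereas Taf1c was higher (0.43, adjusted p = 0.024), which did not hold with median-of-ratios scaling (0.067), quantile normalization (0.11), without control replicate 2 (0.072) or without any 1 sulfasalazine replicate (0.07 to 0.086). Ubtf, the factor that keeps rDNA open, stood at 92.1, 105 and 149 FPKM untreated and 108, 105 and 120 FPKM treated, with overlapping groups (log2 fold change -0.03, adjusted p = 0.9), and its sign turned without control replicate 3 (0.17). Rrn3, which couples the polymerase to SL1, was not called (-0.22, adjusted p = 0.092), but passed as lower without control replicate 3 (0.033) or with median-of-ratios scaling (0.018). Tbp, the TATA-binding protein within SL1, was not called either (0.05, adjusted p = 0.72), and its sign turned with that scaling (-0.07). Nolc1, a nucleolar chaperone of snoRNPs, stood at 234, 259.5 and 230.5 FPKM untreated and 82.2, 86.0 and 81.5 FPKM treated (a log2 change of -1.52 with SE 0.10, adjusted p = 1.0e-05). Its partner Tcof1, encoding treacle, was not called (-0.45, adjusted p = 0.094), with control replicate 1 as low as the treated libraries at 24.5, 42.3 and 43.0 FPKM in controls and 24.2, 25.9 and 27.2 FPKM with sulfasalazine. Without control replicate 1, Tcof1 was called lower (-0.71, adjusted p = 0.0025). Myc itself stood at 624, 686 and 663 FPKM untreated and 130.3, 133 and 121 FPKM treated (a log2 change of -2.35 with SE 0.10, adjusted p = 3.4e-06).

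All 6 genes of the UTP-A subcomplex fell, where 29.3% of all tested genes were called lower. This subcomplex binds the nascent rRNA first and is also known for a role in polymerase I transcription. Wdr43 (chromosome 17, 71615895 to 71659031) stood at 154, 173.5 and 139.9 FPKM untreated and 34.9, 34.8 and 40.4 FPKM treated, a 4.25-fold fall (a log2 change of -2.06 with SE 0.12, adjusted p = 8.4e-06). Wdr75 stood at 45.7, 45.1 and 32.2 FPKM untreated and 14.3, 13.9 and 19.4 FPKM treated (a log2 change of -1.32 with SE 0.19, adjusted p = 0.00042). Heatr1, a large HEAT-repeat scaffold, stood at 74.7, 83.5 and 58.5 FPKM untreated and 31.75, 33.5 and 34.3 FPKM treated (a log2 change of -1.09 with SE 0.14, adjusted p = 0.00028). The other 3, Utp4, Utp15 and Nol11, had log2 fold changes from -1.08 to -0.75. In all 6 the groups did not overlap, as in 71.4% of all tested genes.

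Of 20 other members of the small-subunit processome, 9 (45.0%) fell and 11 were not called (median -0.34), where 29.3% of all tested genes were called lower. Utp20, a large HEAT-repeat protein (chromosome 10, 88746607 to 88826804), stood at 151, 115 and 75.5 FPKM untreated and 30.7, 31.5 and 32.2 FPKM treated (a log2 change of -1.76 with SE 0.22, adjusted p = 0.00023). Its controls were spread widely, with control replicate 3 lowest, and still lay above all treated values. Nol7 stood at 109.6, 119.5 and 114 FPKM untreated and 33.8, 33.3 and 39.8 FPKM treated (a log2 change of -1.66 with SE 0.11, adjusted p = 1.2e-05), and shares 16.5% of exonic bases with other genes, chiefly with Ranbp9 on the opposite strand, whose reads could not be told apart without strand. Nop14, which holds the particle's central domain together, stood at 129, 131 and 102.5 FPKM untreated and 42.85, 41.0 and 46.1 FPKM treated (a log2 change of -1.45 with SE 0.12, adjusted p = 3.4e-05). Utp18, Utp14a, Nol10, Utp3, Imp4 and Rrp9 also fell, from -1.41 for Utp18 to -0.44 for Rrp9. Rrp9 did not pass without sulfasalazine replicate 1 (adjusted p = 0.054).

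The processome genes that were not called include named partners of genes that fell. Imp3 binds the same complex as Imp4 and stood at 60.45, 70.8 and 86.3 FPKM untreated and 62.3, 66.1 and 60.65 FPKM treated (adjusted p = 0.27), whereas Imp4 stood at 100.5, 107 and 111 FPKM untreated and 57.9, 59.4 and 62.4 FPKM treated (a log2 change of -0.81 with SE 0.10, adjusted p = 0.00016). Noc4l, the partner of Nop14, stood at 60.4, 61.1 and 71.85 FPKM untreated and 55.6, 54.8 and 49.97 FPKM treated (adjusted p = 0.07), but passed with median-of-ratios scaling (0.028). Utp6, which sits in the UTP-B subcomplex with Utp18, stood at 16.6, 15.8 and 13.35 FPKM untreated and 19.2, 17.8 and 21.9 FPKM treated (adjusted p = 0.066), with every treated value above the controls. Nol6, Rrp7a and Rrp36 belong to the UTP-C subcomplex. Their log2 fold changes were 0.15, -0.15 and -0.31 with adjusted p = 0.31, 0.3 and 0.076. Of these, Nol6 passed as higher without control replicate 3 (0.035), and Rrp36 as lower without control replicate 2 (0.017) or with median-of-ratios scaling (0.029). Utp25 (-0.37) and Utp11 (-0.21) were not called, but both passed as lower under quantile normalization (adjusted p = 0.016 and 0.042). Utp23 (0.05), Nop9 (0.07) and Utp14b (0.08) were near 0, and each changed sign under some settings. Utp14b, an intronless copy of Utp14a known from the testis, stood at 1.25, 1.30 and 0.970 FPKM untreated and 1.36, 0.849 and 1.77 FPKM treated, and Utp14a at 38.1, 34.3 and 27.15 FPKM untreated and 12.6, 12.7 and 11.2 FPKM treated (a log2 change of -1.36 with SE 0.16, adjusted p = 0.00013). Among late small-subunit factors, Tsr1 (-1.12) and the export factor gene Rrp12 (-0.91) fell and Bysl was not called (-0.16, adjusted p = 0.38). Tsr1 stood at 50.8, 55.9 and 42.0 FPKM untreated and 20.6, 21.9 and 24.1 FPKM treated, and shares 32.3% of exonic bases with other genes, chiefly with Srr on the opposite strand.

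Large-subunit factors outside PeBoW numbered 15, of which 12 fell, 1 rose and 2 were not called (median -1.03). These shares, 80.0% lower and 6.7% higher, stand beside 29.3% and 37.2% of all tested genes. Nol8 stood at 20.5, 17.9 and 7.94 FPKM untreated and 4.11, 2.88 and 3.92 FPKM treated (a log2 change of -1.74 with SE 0.32, adjusted p = 0.0017). Control replicate 3 lay well below the other controls for this gene and still above the treated values. Rrp15 stood at 11.0, 13.2 and 12.4 FPKM untreated and 4.09, 2.91 and 4.04 FPKM treated (a log2 change of -1.50 with SE 0.17, adjusted p = 0.00012) and Rrs1, which helps place the smallest rRNA in the large subunit, at 56.0, 59.0 and 53.4 FPKM untreated and 19.0, 19.8 and 20.2 FPKM treated (a log2 change of -1.47 with SE 0.11, adjusted p = 1.7e-05). The rRNA methyltransferase genes Rrp8 and Nop2 fell by 1.22 and 1.12 on the log2 scale. Of the related genes Noc2l and Noc3l, Noc2l, which shares 20.9% of exonic bases with other genes, fell from 157 ± 29.9 to 76.0 ± 7.34 FPKM, and Noc3l from 22.4 ± 0.199 to 9.43 ± 1.155 FPKM. Nifk, Mrto4, Rrp1b, Nol12 and Nol9, the last encoding a kinase that acts on the cut rRNA spacer, had log2 fold changes from -1.18 to -0.71.

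Nop16 was the clearest exception. It stood at 27.9, 33.9 and 43.2 FPKM untreated and 60.6, 71.85 and 62.6 FPKM treated, a 1.86-fold rise without overlap (a log2 change of 0.89 with SE 0.17, adjusted p = 0.0017). It rose under each alternative setting tried. Rrp1, the paralogue of Rrp1b, stood at 232, 234 and 246 FPKM untreated and 282, 299 and 259 FPKM treated and was not called (adjusted p = 0.07), with all treated values above the controls. It passed as higher under quantile normalization (0.0034) and without control replicate 3 (0.037). Rrp1b stood at 56.6, 54.55 and 61.6 FPKM untreated and 32.1, 34.6 and 30.7 FPKM treated (a log2 change of -0.81 with SE 0.11, adjusted p = 0.00031), so the paralogues lay on opposite sides of 0. Nop53, which recruits the RNA exosome to the large-subunit precursor, stood at 93.3, 119 and 122 FPKM untreated and 130, 123 and 115 FPKM treated with overlapping groups (adjusted p = 0.34).

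The abundant nucleolar proteins nucleolin and nucleophosmin had the highest control levels after Nop56. Ncl (chromosome 1, 86344719 to 86359400) stood at 421, 517 and 366 FPKM untreated and 102, 83.1 and 105 FPKM treated, a 4.50-fold fall (a log2 change of -2.15 with SE 0.15, adjusted p = 1.6e-05). Npm1 (chromosome 11, 33152287 to 33163206) stood at 574, 831 and 464 FPKM untreated and 195, 195 and 254 FPKM treated (a log2 change of -1.50 with SE 0.22, adjusted p = 0.00045), with control replicate 2 far above the other controls. Of the 50-base words of Npm1, 24.3% occur in other genes. The pattern also matched Nol3, an apoptosis repressor, and Nol4l, which are not known assembly factors. Nol3 was below the filter at 0.0315, 0.0591 and 0.115 FPKM untreated and 0.356, 0.2775 and 0.287 FPKM treated and was not tested, and other genes overlap 48.2% of its exonic bases. Nol4l stood at 1.36, 0.603 and 1.59 FPKM untreated and 2.09, 1.74 and 2.36 FPKM treated (adjusted p = 0.052) and passed as higher with no intensity trend (0.049), with voom on recovered reads (0.048) and without control replicate 3 (0.02). Polr1d, at 0.048, and Nol4l, at 0.052, had the adjusted p nearest to 0.05 on either side.

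Assembly factors that the name pattern does not match were called in similar proportions. Of 105 symbols listed, 102 were in the table and tested, and 74 fell, 5 rose and 23 were not called (median -0.81). These shares, 72.5% lower and 4.9% higher, stand beside 29.3% and 37.2% of all tested genes. The rises numbered 3 without sulfasalazine replicate 1 or 2, where 32.8% and 33.6% of all tested genes were called higher. Gnl3, encoding nucleostemin, stood at 174, 205 and 109 FPKM untreated and 20.0, 20.3 and 21.9 FPKM treated (a log2 change of -2.87 with SE 0.21, adjusted p = 1.9e-05). Nmd3, the export adaptor of the large subunit, stood at 47.1, 50.7 and 35.7 FPKM untreated and 7.01, 7.48 and 9.95 FPKM treated (-2.31, SE 0.19). Ltv1, an assembly factor of the small subunit, stood at 94.2, 104 and 82.7 FPKM untreated and 21.5, 19.9 and 17.4 FPKM treated (-2.20, SE 0.13). The RNA exosome, which trims rRNA precursors, had 9 subunit genes in the list, of which 6 fell, 2 rose and 1, Exosc7, was not called (median -0.54). The falls were in Exosc3 (-1.42), Exosc8 (-1.01), Exosc1 (-0.83), Exosc2 (-0.72), Exosc9 (-0.54, adjusted p = 0.049) and Exosc10 (-0.45), and these subunits were grouped after their values were seen. The rises were the 2 largest of the list. Exosc5 stood at 9.08, 7.84 and 12.9 FPKM untreated and 29.2, 30.1 and 26.4 FPKM treated (a log2 change of 1.46 with SE 0.19, adjusted p = 0.00023) and Exosc4 at 18.6, 16.0 and 22.6 FPKM untreated and 46.4, 45.3 and 41.5 FPKM treated (a log2 change of 1.19 with SE 0.15, adjusted p = 0.0002), and other genes overlap 19.8% of the exonic bases of Exosc4. The helicase gene Ddx54 stood at 40.0, 44.05 and 45.5 FPKM untreated and 69.7, 73.6 and 63.5 FPKM treated (a log2 change of 0.66 with SE 0.11, adjusted p = 0.00094). Genes for the ribosomal proteins themselves were called less often than all tested genes in either direction. Of 79 tested, 18 (22.8%) were lower and 15 (19.0%) higher, against 29.3% and 37.2% of all tested genes. The other 46 were not called, and the median was -0.03. This set includes the paralogues Rpl22l1, Rpl7l1 and Rps27l, and the sequence that its genes share with other genes was not measured.

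**Figure D3:**
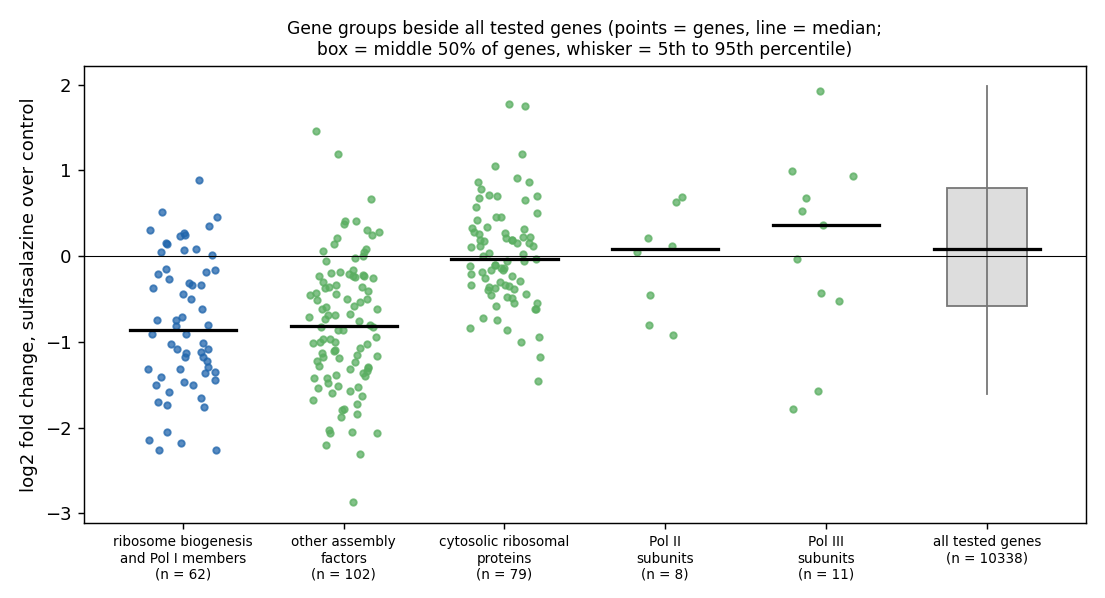
Log2 fold change (sulfasalazine over control) of the 62 members, 102 other assembly factors, 79 cytosolic ribosomal protein genes, 8 RNA polymerase II and 11 RNA polymerase III subunit genes, with a line at each median, beside the spread of all 10338 tested genes. The medians of the first pair of groups are -0.86 and -0.81, and those of the others lie between -0.03 and 0.37.

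Several of the steepest falls were in genes that carry snoRNA genes inside them, in an arrangement where the guide RNA is typically cut from an intron of its host. GENCODE M21 places snoRNA genes on the same strand inside 7 of the 62 tested members: Nop56 (5 snoRNA genes), Nop58 (4), Ncl (3), Wdr43 (3), Tsr1 (2), Dkc1 (1) and Nop53 (1). Of these 7, 6 fell and 1, Nop53, was not called, with a median log2 fold change of -2.06, against -0.75 for the 55 others. Of the 5 members with the lowest fold change, Wdr12 was the 1 without a snoRNA gene. Among listed genes outside the members, Taf1d holds 8 (log2 fold change -2.85), Gnl3 3 (-2.87) and Ppan 2 (-0.21, not called). Bud23 (-0.3, called lower), Top2a (-0.78, not called) and Polr3c (0.52, called higher) hold 1 each. Phex, which was not tested, also holds 1. Over all tested genes the 205 with a snoRNA gene inside had a median of -0.09, with 34.6% called lower. The 10127 without one had a median of 0.09, with 29.2% called lower. In this comparison the host genes were noticed after their values were seen, and it carries no test. The annotation places some of these snoRNAs wholly or partly in host exons. This holds for all in Taf1d and Gnl3, all but Snord110 in Nop56, all but Snord82 in Ncl, and Gm26293 in Nop58. Those in Wdr43, Tsr1, Dkc1 and Nop53 lie outside host exons. Whether host levels include reads from snoRNAs was not tested. The snoRNAs themselves were not analysed here.

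The sequences of 4 snoRNAs that lie outside annotated exons are shown, from the 4 hosts with the steepest falls among the members, because box C/D RNAs of this class are what the Nop56, Nop58 and Fbl proteins bind. They are from GENCODE M21 transcripts (GRCm38), written as DNA. Capitals mark the first TGATGA, the common form of box C, and the last CTGA, box D, on the strand given. Snord110 lies in Nop56 (chr2:130275506-130275573, plus strand), Snord11 in Nop58 (chr1:59704790-59704873, plus strand), Snord92 in Wdr43 (chr17:71631281-71631365, plus strand) and Snord82 in Ncl (chr1:86356261-86356330, minus strand).
Snord110: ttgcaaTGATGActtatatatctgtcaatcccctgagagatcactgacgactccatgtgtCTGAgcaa
Snord11: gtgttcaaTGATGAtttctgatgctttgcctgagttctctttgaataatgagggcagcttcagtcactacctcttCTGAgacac
Snord92: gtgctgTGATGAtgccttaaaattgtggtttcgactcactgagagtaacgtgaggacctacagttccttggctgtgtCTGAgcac
Snord82: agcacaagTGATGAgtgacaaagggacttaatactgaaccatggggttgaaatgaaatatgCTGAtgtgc

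**Figure D4:**
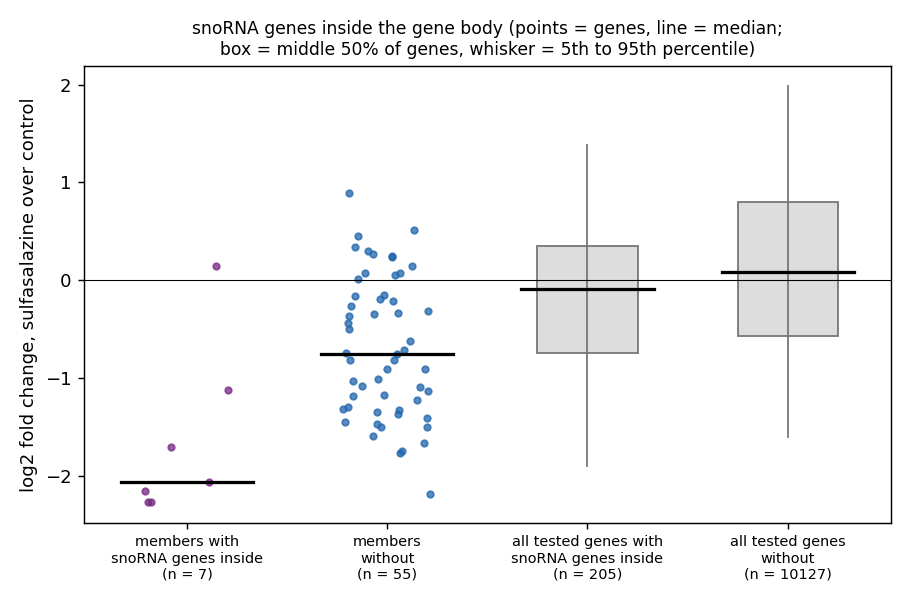
Log2 fold change (sulfasalazine over control) of the 7 tested members with snoRNA genes inside and the 55 without, with a line at each median, beside all tested genes with (205) and without (10127). The medians of the members are -2.06 and -0.75, and those of all genes -0.09 and 0.09.

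Promoters were searched for CACGTG, the canonical E-box that MYC and other basic helix-loop-helix factors bind, which reads the same on both strands. RefSeq promoter windows (GRCm38.p6, 250 bases before to 50 after the start) were matched for 52 of the 63 members, and 12 of these, 23.1%, held the motif. Among the other assembly factors it was 17 of 88 (19.3%), among all tested genes with a promoter 12.3%, and among all genes with a RefSeq window 8.1%. The 12 members with the motif, 9 of them called lower, had a median log2 fold change of -0.95. The 40 without it, 27 of them called lower, had a median of -0.96, where 29.3% of all tested genes were called lower. These medians nearly coincided. A match does not show that a factor binds there.

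The motif lies upstream of the start in Nop2, Nol11, Utp18 and Imp4, which fell, and in Rrp7a, Utp14b and Utp25, which were not called. In Pes1, Tsr1, Utp20, Utp4 and Wdr43, which fell, it lies only after the start, and Utp25 also holds it after a start. For the 4 with an upstream motif that fell, the surrounding bases are shown 5′ to 3′ on the gene's strand, with the motif in capitals. Positions are counted from the start. The windows are Nop2 (chr6:125131796-125131855, plus strand, motif from position -60), Nol11 (chr11:107189392-107189451, minus strand, motif from position -43), Utp18 (chr11:93885767-93885813, minus strand, motif from position -20) and Imp4 (chr1:34439681-34439740, plus strand, motif from position -121).
Nop2: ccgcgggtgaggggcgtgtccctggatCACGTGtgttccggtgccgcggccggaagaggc
Nol11: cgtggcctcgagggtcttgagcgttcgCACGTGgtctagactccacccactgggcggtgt
Utp18: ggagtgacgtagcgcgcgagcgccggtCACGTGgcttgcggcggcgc
Imp4: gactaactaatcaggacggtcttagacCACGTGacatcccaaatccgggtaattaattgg

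Replicates were less even in the controls. The SD of log2(FPKM + 1) was larger in the control than in the sulfasalazine group for 47 of the 62 tested members, with medians of 0.187 and 0.103, and over all tested genes the medians were 0.219 and 0.12. Control replicate 3 lay above both other controls in 29 members and below both in 25. It was lowest relative to the others in Nol8 (-1.17 on the log2 scale), Utp20 (-0.79) and Npm1 (-0.57), and highest in Bop1 (0.48) and Nop16 (0.48). Across the 62 members this deviation had a Spearman rho of -0.22 with exonic length, and across 10332 tested genes -0.39, as a description of 1 library. Of the members, 42 had under 5% shared with other genes both in exonic bases and in 50-base words. Of these 42, 26 (61.9%) fell and 2 (4.8%) rose (median -0.78), against 29.3% and 37.2% of all tested genes.

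The authors' deposited table selected 31 of the 63 members as lower and 1 as higher, where the adjusted p was below 0.05 and the size of the log2 change above 1. Of all 14003 genes, the authors' deposited table selected 16.1% as lower and 18.8% as higher. The gene selected as higher was Nol3, which had not passed the filter used here.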

How the data were processed

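RNA of 3 control and 3 sulfasalazine-treated MC3T3-E1 samples was sequenced. The submitters' processing notes name HISAT2 2.2.1, fastp 0.23.0, edgeR, HTSeq 0.13.5 and, as build, mm39, without role or order, and do not state whether counting used strand. Of 13982 genes found in GENCODE M21 (GRCm38), 13849 had the same start and end as in the table, so coordinates are given as GRCm38. Per the file headers, the deposited table holds FPKM and a library-size-adjusted signal for each library, and the authors' own log2 fold changes and p-values for the comparison.

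FPKM values were tested as log2(FPKM + 1) with limma 3.58.1 (moderated, with an intensity trend) in R 4.3.3 on 10338 genes at 1 FPKM or more in at least 3 libraries, with Benjamini-Hochberg adjustment over all of them. All adjusted p-values are from this fit unless another setting is named. Whole reads were recovered from the steps of the FPKM values for 14003 genes, 1533 of them with more than 1 possible solution, and 15980935 to 21579133 reads per library resulted. The fit was tested on simulated data of the same 10338 genes, where 99.8% of the genes given a log2 change of 1 were called, and 0.093% of unchanged genes. The number of changed genes was set to 200 there, whereas 66.5% of all tested genes were called in the measured libraries. Every simulated gene also had the same SD in both groups. In the measured libraries the SD differed between genes, with medians of 0.219 in controls and 0.12 with sulfasalazine on the log2 scale. Whether these rates hold for the measured libraries was not tested. Members and gene lists were chosen with earlier results of these data known. The genes named were, by rule, all polymerase I subunits, the 3 largest called changes of each other role without overlap and at 5 FPKM or more in the higher group, members not called or called against most of their role, the excluded member, the 2 nearest the threshold and listed context genes. The remaining members were named to account for all 63, and Snu13 as a box C/D core protein gene outside the members. Alternatives were another pseudocount, filters, scalings, a replicate block, voom on recovered reads and leaving out each library.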

Additional observations from a re-analysis of the deposited data

How the results depend on the processing

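Members called lower numbered 38 to 44 under every alternative at adjusted p under 0.05, and 37 at 0.01, and 39 called members kept their call and direction under each setting but that stricter threshold. Members called higher, 3 in the reported fit, numbered 1 with median-of-ratios scaling, 1 at adjusted p under 0.01, 5 with quantile normalization and 8 without replicate 3 of both groups. Leaving out 1 library gave 1 (without sulfasalazine replicate 1 or 2) to 8 (without control replicate 3). Other assembly factors called higher, 5 in the reported fit, numbered 3 with median-of-ratios scaling, 3 at 0.01, 10 without replicate 3 of both groups and 3 to 7 with 1 library left out. Median-of-ratios scaling moved the median of all tested genes from 0.08 to -0.03, and the median log2 fold change of the members from -0.86 to -0.99. The genes whose log2 fold change turned sign were not called in either case. With median-of-ratios scaling these were Nop9 (-0.05), Polr1c (-0.11), Polr2f (-0.05), Tbp (-0.07) and Utp23 (-0.06). With quantile normalization they were Nop9 (-0.02), Tbp (-0.07), Ubtf (0.05), Utp14b (-0.31) and Utp23 (-0.15). Without replicate 3 of both groups they were Bysl (0.0), Ubtf (0.11), Utp14b (-0.13) and Utp23 (-0.09). With 1 library left out, Nop9 ranged from -0.01 to 0.20, Polr1c from -0.02 to 0.07, Ubtf from -0.17 to 0.17, Utp14b from -0.06 to 0.24 and Utp23 from -0.05 to 0.15. The cause was not tested. Replicate numbers did not pair the libraries (correlations of same-numbered deviations 0.0363, -0.194 and -0.174), and a replicate block gave 40 members lower and 3 higher.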
